A study of Mus musculus with 12 samples.

Results

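The genes described here are 44 genes of DNA replication and deoxynucleotide supply, chosen by name, out of 15113 genes in the count table of C2C12 myotubes treated with BAM15. C2C12 is an immortalised mouse myoblast line that leaves the cell cycle and fuses into multinucleated myotubes when serum is lowered, and BAM15 is a small molecule that carries protons across the inner mitochondrial membrane. Myotubes labelled as fully differentiated received 20 μM BAM15 in DMSO or vehicle for 16 h, and each condition had 6 libraries of total RNA, made with a kit that reads the 3′ ends of mRNA. All cells came from this 1 line and no gene was edited. The comparison asks how BAM15 changed transcript levels, and the 44 genes were taken in 6 groups by role: 16 of origin licensing and the helicase, 8 of the polymerases and primase, 6 of the sliding clamp and its loader, 5 of single-strand binding and strand joining, 4 of chromatin assembly and histone supply, and 5 nucleotide enzymes.

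To copy its genome, a cell first licenses origins in G1: the origin recognition complex, CDC6 and CDT1 load the ring of MCM2 to MCM7, which becomes the active helicase once CDC45 and GINS join it. Primase with polymerase alpha then starts each strand, polymerases epsilon and delta extend it while held on DNA by the PCNA ring, and RFC opens that ring. Ribonucleotide reductase, thymidylate synthase and thymidine kinase feed the forks. Many of these genes are known targets of E2F factors and are low in cells that have left the cycle, as most nuclei of a myotube culture have, while unfused cells in the same dish can still divide.

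Promoters are shown for the genes with the largest change in 4 of the role groups that held a match to the E2F consensus, to show the motif searched below in place. The windows are from RefSeq on GRCm38.p6, a patch of GRCm38, the build the labels name. They run from 250 bases before to 50 bases after the annotated start. The match is in capitals and the rest in lower case. Pclaf (chr9:65890073-65890372, plus strand) holds its match at −5 from the start, Uhrf1 (chr17:56304063-56304362, plus strand) at −185, Cdc6 (chr11:98907901-98908200, plus strand) at −138, and Lig1 (chr7:13278576-13278875, plus strand) at 26 bases after the second of its 3 annotated starts.
Pclaf: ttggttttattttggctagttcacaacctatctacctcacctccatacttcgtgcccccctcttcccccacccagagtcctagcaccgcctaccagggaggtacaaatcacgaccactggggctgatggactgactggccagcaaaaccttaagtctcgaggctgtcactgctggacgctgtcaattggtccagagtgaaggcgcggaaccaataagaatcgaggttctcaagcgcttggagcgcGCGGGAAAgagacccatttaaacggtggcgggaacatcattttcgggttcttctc
Uhrf1: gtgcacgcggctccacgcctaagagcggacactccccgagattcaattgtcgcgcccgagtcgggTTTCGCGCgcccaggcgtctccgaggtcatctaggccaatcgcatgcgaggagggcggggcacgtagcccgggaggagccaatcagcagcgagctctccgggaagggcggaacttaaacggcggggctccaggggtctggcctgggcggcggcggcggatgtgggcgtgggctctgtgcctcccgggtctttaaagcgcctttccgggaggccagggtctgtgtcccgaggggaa
Cdc6: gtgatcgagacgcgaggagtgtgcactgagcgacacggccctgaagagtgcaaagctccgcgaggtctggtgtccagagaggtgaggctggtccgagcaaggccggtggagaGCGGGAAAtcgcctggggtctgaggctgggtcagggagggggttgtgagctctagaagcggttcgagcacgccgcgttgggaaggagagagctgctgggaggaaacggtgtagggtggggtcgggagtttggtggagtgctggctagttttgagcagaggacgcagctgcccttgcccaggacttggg
Lig1: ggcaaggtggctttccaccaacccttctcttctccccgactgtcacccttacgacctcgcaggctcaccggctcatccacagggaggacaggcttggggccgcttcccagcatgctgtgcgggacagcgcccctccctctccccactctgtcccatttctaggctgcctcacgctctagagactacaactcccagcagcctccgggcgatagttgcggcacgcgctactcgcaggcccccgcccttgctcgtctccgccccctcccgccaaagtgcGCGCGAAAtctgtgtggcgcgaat

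The E2F consensus was searched on both strands as TTTCCCGC, TTTCGCGC, TTTGCCGC and TTTGGCGC, which do not overlap with the CCAAT box, the other motif searched. Of the 44 genes, 37 had a promoter entry, and Gins1, Gins2, Gins4, Mcm4, Pole, Prim2 and Rfc2 had none. An E2F match was found for 15 of the 37 (40.5%), beside 2.61% of 27025 genes with a promoter of the same length, 4.74% of 9587 tested genes among them, and 19.7% of 66 other replication genes. CCAAT was found for 24 of the 37 (64.9%), beside 41.1% of all genes, 42.8% of tested genes and 43.9% of other replication genes. In the shorter window from 100 bases before the start the shares were 29.7% for E2F, beside 1.45% of all genes, 2.58% of tested genes and 15.2% of other replication genes, and 56.8% for CCAAT, beside 26.3%, 29.4% and 37.9%. By role, matches to E2F were found in 8 of 12 licensing and helicase genes, 3 of 6 polymerase and primase genes, 2 of 5 clamp and loader genes, 1 of 5 strand binding and joining genes, 1 of 4 chromatin and histone genes and 0 of 5 nucleotide enzymes. These letters describe the windows and are not evidence of binding. Only exact matches within the window were counted, so a gene without a match can still be a target of E2F.

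The 12 libraries held 13983725 to 18866728 counts. Of 15113 genes, 12730 passed the filter on low counts, all 44 among them, and were tested with edgeR's quasi-likelihood test, with p-values adjusted by Benjamini-Hochberg over all 12730. A gene is said to have risen or fallen at an adjusted p below 0.01. The stricter rule of the study's methods also asks for a mean normalized count above 50 and a change of more than 2-fold, and genes meeting it are said to have passed all thresholds. Normalized counts are the deposited counts divided by library size factors, log2 fold changes are BAM15 minus vehicle with their standard error (SE), and n is 6 per condition.

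Replication genes were lower as a group after BAM15. Of the 44 genes, 30 fell (68.2%, beside 20.3% of all tested genes) and 3 rose (6.82%, beside 22.0%). In 29 of the 44 every BAM15 library lay below every vehicle library (65.9%, beside 17.0%), in 3 every BAM15 library lay above (6.82%, beside 17.1%), and in 12 the conditions overlapped. All thresholds were passed by 14 genes in the lower direction (31.8%, beside 3.58%) and by 0 in the higher direction (edgeR, and likewise 0 with DESeq2 and with limma-voom), where 3.70% of all tested genes passed. The median log2 fold change of the 44 was −0.77, against 0.02 for all tested genes, and the values ran from −3.44 for Pclaf to 0.96 for Dut. In bulk RNA, fewer cells of a kind and less RNA per cell cannot be told apart.

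The fall was uneven among roles. Counts by role below rest on few genes. Over all tested genes 20.3% fell, 22.0% rose and 3.58% passed all thresholds in the lower direction. Median log2 fold changes were −0.86 for licensing and helicase genes, −0.76 for polymerases and primase, −0.52 for clamp and loader, −0.51 for strand binding and joining, −1.43 for chromatin and histone supply, and −0.9995 for nucleotide enzymes. The 14 genes past all thresholds were Mcm3, Mcm5, Mcm6, Mcm10, Gins2, Pole, Pclaf, Rfc5, Lig1, Uhrf1, Chaf1a, Chaf1b, Tk1 and Rrm2. Cdc6 and Gins1 missed them only through mean counts of 42.5 and 46.4. Just inside the 2-fold limit was Mcm6 at −1.10, and just outside were Rrm1 at −0.9995 (a 1.999-fold change), Gins3 at −0.97 and Prim2 at −0.97.

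**Figure D1:**
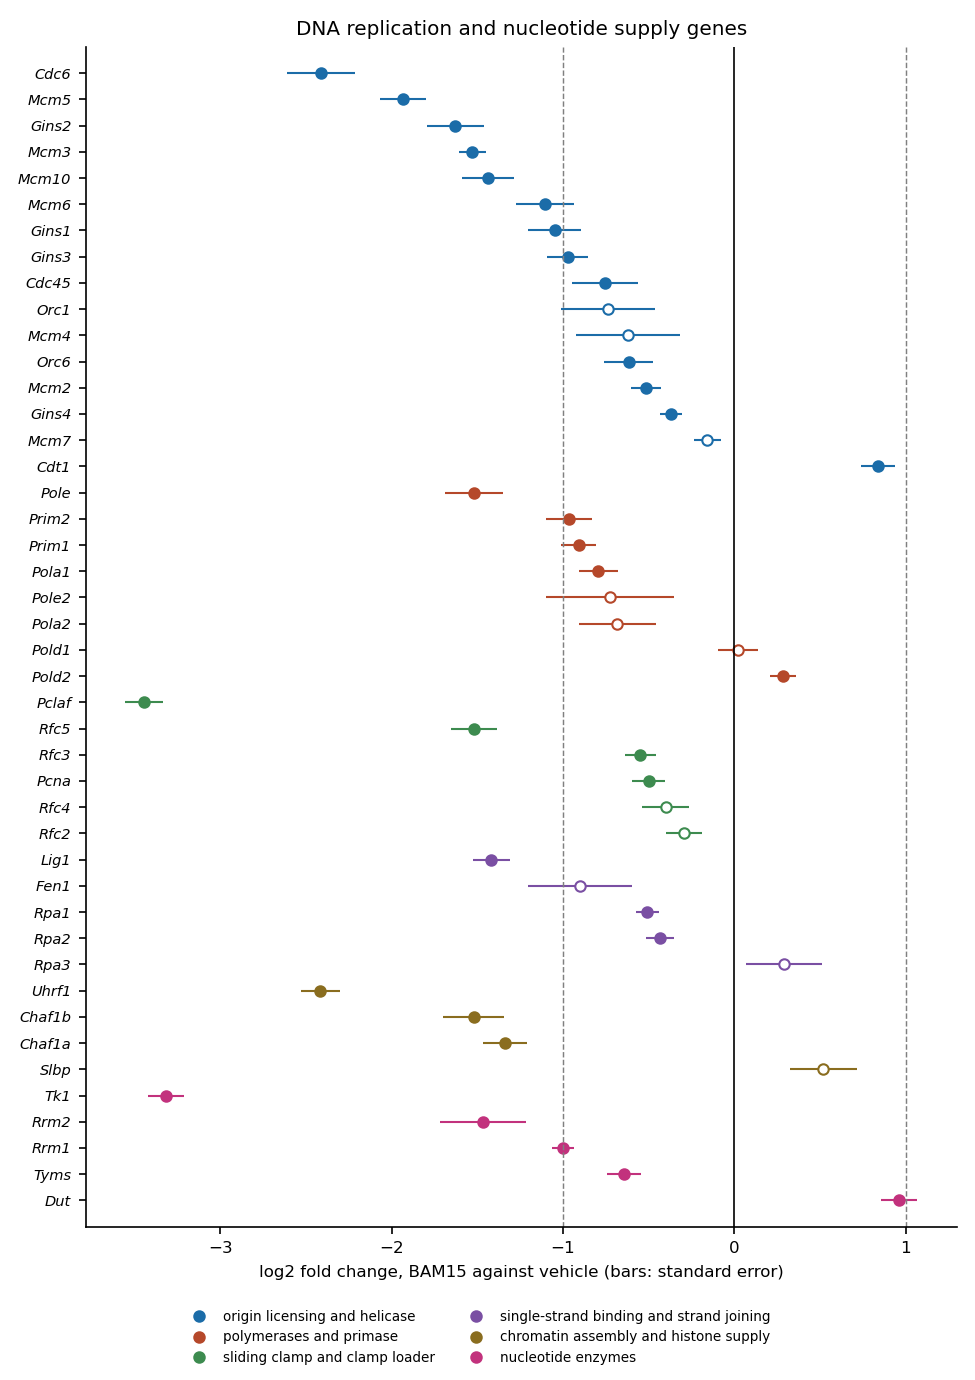
Log2 fold change of each of the 44 genes, BAM15 against vehicle, with the standard error as a bar, coloured by role group. Filled circles are genes with an adjusted p below 0.01, open circles the other 11, and dashed lines mark a 2-fold change. Most points lie left of 0, with Pclaf and Tk1 farthest and Cdt1, Dut and Pold2 as the filled points on the right.

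Markers of dividing cells moved with the replication genes. All 8 listed (among them Mki67, Top2a, Ccnb1 and Plk1) fell (100%, beside 20.3% of all tested genes). Of these, 7 passed all thresholds (87.5%, beside 3.58%). The 8 had a median log2 fold change of −1.65. Their summed normalized count was 2167 to 2415 in BAM15 libraries against 6260 to 7068 in vehicle libraries. Of 8 markers of undifferentiated or reserve cells 4 fell (50%, beside 20.3%) and 1 rose (12.5%, beside 22.0%). Their sums were 2111 to 2830 against 3622 to 4220. Pax7, which marks satellite and reserve cells, fell by 0.93 on the log2 scale, while Myf5, a myogenic factor of myoblasts, rose by 1.69 (adjusted p = 0.00144). The ranges of Myf5 overlapped, with 95.6 to 201 counts in vehicle and 188 to 845 in BAM15 libraries. Its change was 1.00 in libraries numbered 1 to 3 and 2.07 in those numbered 4 to 6. The difference between these changes did not pass the edgeR test (adjusted p = 0.106). Of 12 myotube markers 4 fell (33.3%, beside 20.3%) and 2 rose (16.7%, beside 22.0%). Their median was −0.14 and their sums were 391431 to 505365 against 409292 to 455950. Among 5 tested fibroblast markers 2 fell (40%, beside 20.3%) and 1 rose (20%, beside 22.0%). Sums over the 6 listed were 41915 to 51855 against 34043 to 47890. These sums are led by Fn1, the gene that rose (log2 0.66), with means of 28236 in BAM15 and 17844 in vehicle libraries. Col1a1 and Dcn, the 2 that fell, had log2 fold changes of −0.86 and −0.67. No marker in the table was at 0 in all libraries. The part of these cells in the values of the replication genes was not tested.

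Origin licensing and helicase genes fell in 12 of 16 cases, 5 of them past all thresholds, and 1 rose. Cdc6 encodes an ATPase that helps to load the MCM ring on origins. It had 53.3, 72.6 and 89.7 normalized counts in its lowest, median and highest vehicle library and 9.39, 13.2 and 19.4 in BAM15 libraries. The conditions were far apart, and the gene was 5.32-fold lower (log2 fold change −2.41, SE 0.20, adjusted p = 8.56e-08). Mcm5, a subunit of the ring, had 268, 284 and 310 counts in vehicle and 45.1, 81.0 and 91.2 in BAM15 libraries. No BAM15 library came near the lowest vehicle library, and the fall was 3.82-fold (log2 −1.93, SE 0.13, adjusted p = 1.25e-08). Mcm7, from the same ring, had 903, 998 and 1165 counts in vehicle and 800, 870 and 1061 in BAM15 libraries. Here the conditions overlapped (log2 −0.16, SE 0.08, adjusted p = 0.1001).

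The 6 subunits of the MCM ring thus held different values, with log2 fold changes of −1.93 for Mcm5, −1.53 for Mcm3, −1.10 for Mcm6, −0.62 for Mcm4, −0.52 for Mcm2 and −0.16 for Mcm7. Mcm4 is described with the library numbers below, since its BAM15 libraries were spread widely. The 4 subunits of GINS, which activates the helicase, also differed in size, at −1.63 for Gins2, −1.05 for Gins1, −0.97 for Gins3 and −0.37 for Gins4, and all of them fell. Mcm10, which helps to activate the helicase, fell by 1.44 on the log2 scale and Cdc45, the other partner of the ring, by 0.76. The adjusted p of Cdc45 was 0.00398, and 0.0101, 0.0111 and 0.0114 without BAM15 library 4, vehicle library 4 or vehicle library 6. Of the origin recognition complex, 44 genes include Orc6 and Orc1. Orc6 fell by 0.62, with overlapping ranges of 85.2 to 140 counts in BAM15 and 131 to 223 in vehicle libraries. Orc1, with 3.88 to 14.0 counts in BAM15 and 13.8 to 23.7 in vehicle libraries, had a value of −0.74 (adjusted p = 0.0336). The subunits outside the 44 went the other way. Orc2, Orc4 and Orc5 rose by 0.54, 0.43 and 0.61, and Orc3 had a value of 0.26 (adjusted p = 0.0618).

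Cdt1 was the exception among the 16 origin licensing and helicase genes of the 44. Outside the 44, 5 of 19 genes of licensing, firing and the fork rose too (26.3%, beside 22.0% of all tested genes). CDT1 brings the MCM ring to origins and is normally held in check by geminin. It had 144, 195 and 213 counts in the lowest, median and highest vehicle library and 307, 327 and 389 in BAM15 libraries. Every BAM15 library was above every vehicle library (log2 0.84, SE 0.10, adjusted p = 3.63e-06), and its promoter, like those of Mcm5 and Cdc6, holds an E2F match. Gmnn, which encodes geminin, fell by 1.04 on the log2 scale, so that the log2 ratio of Cdt1 to Gmnn rose from 0.68 ± 0.31 to 2.61 ± 0.37 (SD, n = 6).

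Of the polymerase and primase genes 4 of 8 fell, 1 of them past all thresholds, and 1 rose. Pole, the catalytic subunit of polymerase epsilon, had 77.4, 90.5 and 113 counts in vehicle and 20.7, 31.97 and 44.3 in BAM15 libraries. The ranges were well apart (log2 −1.52, SE 0.17, adjusted p = 2.28e-06). Prim2, the large primase subunit, had 108, 126 and 153 counts in vehicle and 49.8, 68.3 and 77.0 in BAM15 libraries. It fell (log2 −0.97, SE 0.13, adjusted p = 2.25e-05), as did the small primase subunit Prim1 at −0.91 and the polymerase alpha catalytic subunit Pola1 at −0.79.

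Polymerase delta behaved otherwise. Its catalytic subunit Pold1 had 89.8, 96.3 and 118 counts in vehicle and 84.4, 98.8 and 120 in BAM15 libraries. These ranges nearly coincide (log2 0.02, SE 0.12, adjusted p = 0.907). The accessory subunit Pold2 had 247, 292 and 315 counts in vehicle and 323, 346 and 395 in BAM15 libraries, and rose (log2 0.28, SE 0.08, adjusted p = 0.00487). That call was lost when either of BAM15 libraries 1 and 2 or any of vehicle libraries 1, 4 and 6 was left out, with log2 values of 0.24 to 0.28 and adjusted p of 0.0102 to 0.0135, and with scaling by library size only (log2 0.22, adjusted p = 0.0163). The values of Pola2 and Pole2, the B subunits of polymerases alpha and epsilon, were −0.68 (adjusted p = 0.0192) and −0.72 (adjusted p = 0.116).

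Sliding clamp and loader genes fell in 4 of 6 cases, 2 of them past all thresholds. Pclaf, a small protein that binds PCNA and rides on the clamp, had the largest change of all 44 genes. It had 468, 513 and 594 counts in its lowest, median and highest vehicle library and 34.8, 49.0 and 56.3 in BAM15 libraries, a 10.9-fold fall (log2 −3.44, SE 0.11, adjusted p = 2.04e-12). Pcna itself, the clamp, fell far less, from 494 to 562 counts to 301 to 469 (log2 −0.50, SE 0.09, adjusted p = 0.000361). Rfc5, a small subunit of the clamp loader, had 203, 259 and 278 counts in vehicle and 59.1, 95.2 and 101 in BAM15 libraries. It fell below all vehicle libraries (log2 −1.52, SE 0.14, adjusted p = 2.15e-07). Another small subunit, Rfc2, had 373, 442 and 554 counts in vehicle and 338, 360 and 439 in BAM15 libraries, with overlapping ranges (log2 −0.29, SE 0.10, adjusted p = 0.0260). Rfc3 fell by 0.55 on the log2 scale, and Rfc4 had a value of −0.40 (adjusted p = 0.0222).

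Of the 5 genes of single-strand binding and strand joining 3 fell. Lig1, which seals the nicks between Okazaki fragments, had 1626, 1727 and 1806 counts in vehicle and 448, 678 and 756 in BAM15 libraries, and was the 1 gene of the group to pass all thresholds (log2 −1.42, SE 0.11, adjusted p = 3.1e-08). Fen1, the nuclease that trims the flap before sealing, had 120, 147 and 190 counts in vehicle and 31.3, 68.7 and 165 in BAM15 libraries. BAM15 library 5, at 165, lay within the vehicle range, and the value was −0.90 (SE 0.30, adjusted p = 0.0222). Rpa3, the smallest subunit of the single-strand binding protein RPA, had 19.9, 26.4 and 31.9 counts in vehicle and 19.7, 34.3 and 42.0 in BAM15 libraries (log2 0.29, SE 0.22, adjusted p = 0.295). The larger subunits Rpa1 and Rpa2 fell by 0.51 and 0.43 on the log2 scale.

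Of the 4 genes of chromatin assembly and histone supply behind the fork 3 fell, all past all thresholds. Uhrf1, which reads hemimethylated DNA and brings DNMT1 to it, had 191, 213 and 223 counts in vehicle and 31.0, 37.9 and 50.2 in BAM15 libraries, a 5.33-fold fall (log2 −2.41, SE 0.12, adjusted p = 1.88e-10). Chaf1b, a subunit of the histone chaperone CAF-1 that deposits new H3 and H4, had 60.6, 93.1 and 118 counts in vehicle and 22.5, 33.4 and 37.8 in BAM15 libraries (log2 −1.52, SE 0.18, adjusted p = 3.77e-06). Its partner Chaf1a fell by 1.34 on the log2 scale. Slbp, which binds the stem-loop of histone mRNA, had 26.8, 38.6 and 64.9 counts in vehicle and 49.8, 56.9 and 76.7 in BAM15 libraries. Its ranges overlapped and its value was positive (log2 0.52, SE 0.20, adjusted p = 0.0369), and it rose without vehicle library 2 (log2 0.68, adjusted p = 0.00415).

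Nucleotide enzymes all changed at an adjusted p below 0.01, 4 down and 1 up. Tk1 (chr11:117815526-117826092, minus strand) encodes the cytosolic thymidine kinase that salvages thymidine in S phase and had 585, 689 and 791 counts in vehicle and 60.9, 64.4 and 87.5 in BAM15 libraries. This was a 9.95-fold fall (log2 −3.31, SE 0.11, adjusted p = 1.87e-12), with no E2F match in its promoter window. Rrm2, the S-phase small subunit of ribonucleotide reductase, had 674, 791 and 848 counts in vehicle and 145, 242 and 483 in BAM15 libraries. The conditions did not overlap, but the BAM15 libraries were widely spread (log2 −1.47, SE 0.25, adjusted p = 0.000296). Tyms, which methylates dUMP to dTMP, had 237, 249 and 288 counts in vehicle and 138, 159 and 204 in BAM15 libraries (log2 −0.64, SE 0.10, adjusted p = 6.37e-05). Rrm1, the large reductase subunit, had 1166, 1253 and 1338 counts in vehicle and 547, 626 and 696 in BAM15 libraries (log2 −0.9995, SE 0.07, adjusted p = 7.54e-09).

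Dut moved against the other enzymes of the group. It encodes the dUTPase that hydrolyses dUTP to dUMP, the substrate of Tyms. Its counts were 443, 480 and 537 in the lowest, median and highest vehicle library and 734, 925 and 1156 in BAM15 libraries. Every BAM15 library was higher, and the rise was the largest of the 44 (log2 0.96, SE 0.11, adjusted p = 2.36e-06).

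**Figure D2:**
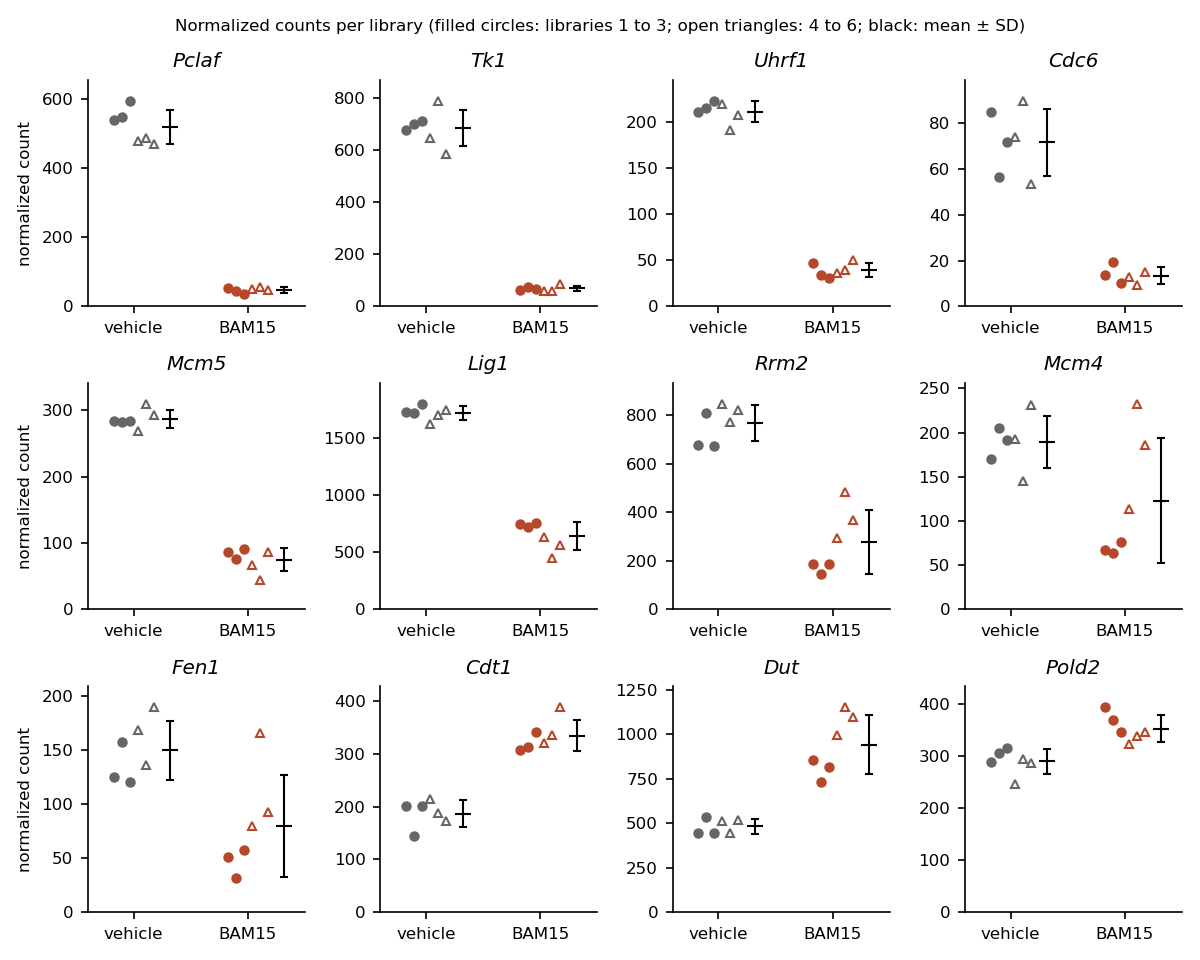
Normalized counts of 12 genes in each library, vehicle in grey and BAM15 in red, with filled circles for libraries 1 to 3, open triangles for libraries 4 to 6, and mean ± SD in black (n = 6). Pclaf, Tk1, Uhrf1, Cdc6, Mcm5, Lig1 and Rrm2 are lower in every BAM15 library, Cdt1, Dut and Pold2 higher, and Mcm4 overlaps with vehicle through BAM15 libraries 5 and 6 and Fen1 through library 5.

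Where the annotation allowed a doubt about which gene a read came from, it concerned 9 of the 44 genes. In the last 400 bases of the transcript, 50-base windows were shared with transcripts of other genes for Mcm5 (4.27% of windows, with 80 genes), Mcm7 (6.27%, Gm5487), Pole2 (55.8%, Gm49384) and Rpa3 (0.285%, Gm6195), so their counts are uncertain to that extent. Exons on the opposite strand covered this stretch wholly or in part for Gins2, Rfc5, Chaf1a, Fen1, Rfc4 and Mcm7, and whether strand was used in counting is not given in the sources used here. The other 35 genes were free of both.

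The BAM15 libraries were not alike. Libraries 4 to 6 differed from libraries 1 to 3 within BAM15 at an adjusted p below 0.05 in 2367 genes that were higher (18.6%) and 2573 that were lower (20.2%). The same contrast within vehicle called 0 genes (0%) with edgeR, with 695 genes at an unadjusted p below 0.05. Vehicle libraries were still not all equally like the 2 sets. By deviation from the mean of their condition, BAM15 libraries 1 to 3 were each most like vehicle library 3. BAM15 libraries 4 to 6 were each most like vehicle library 6. The labels name no batch, and the 2 sets of numbers are used here only as numbers. The split was chosen because earlier results of these data had shown BAM15 libraries 4 to 6 to differ from 1 to 3. Its p-values, here and elsewhere, are thus not a fresh test of that difference. Of the 44 genes, 11 were higher in BAM15 libraries 4 to 6 than in 1 to 3 (25%), 6 were lower (13.6%), and 0 differed within vehicle, where 3 had an unadjusted p below 0.05. The per-library median of the 44, as log2 relative to the vehicle mean, was −1.01 to −0.93 in BAM15 libraries 1 to 3, −0.71 to −0.60 in BAM15 libraries 4 to 6, and −0.04 to 0.06 in vehicle libraries.

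**Figure D3:**
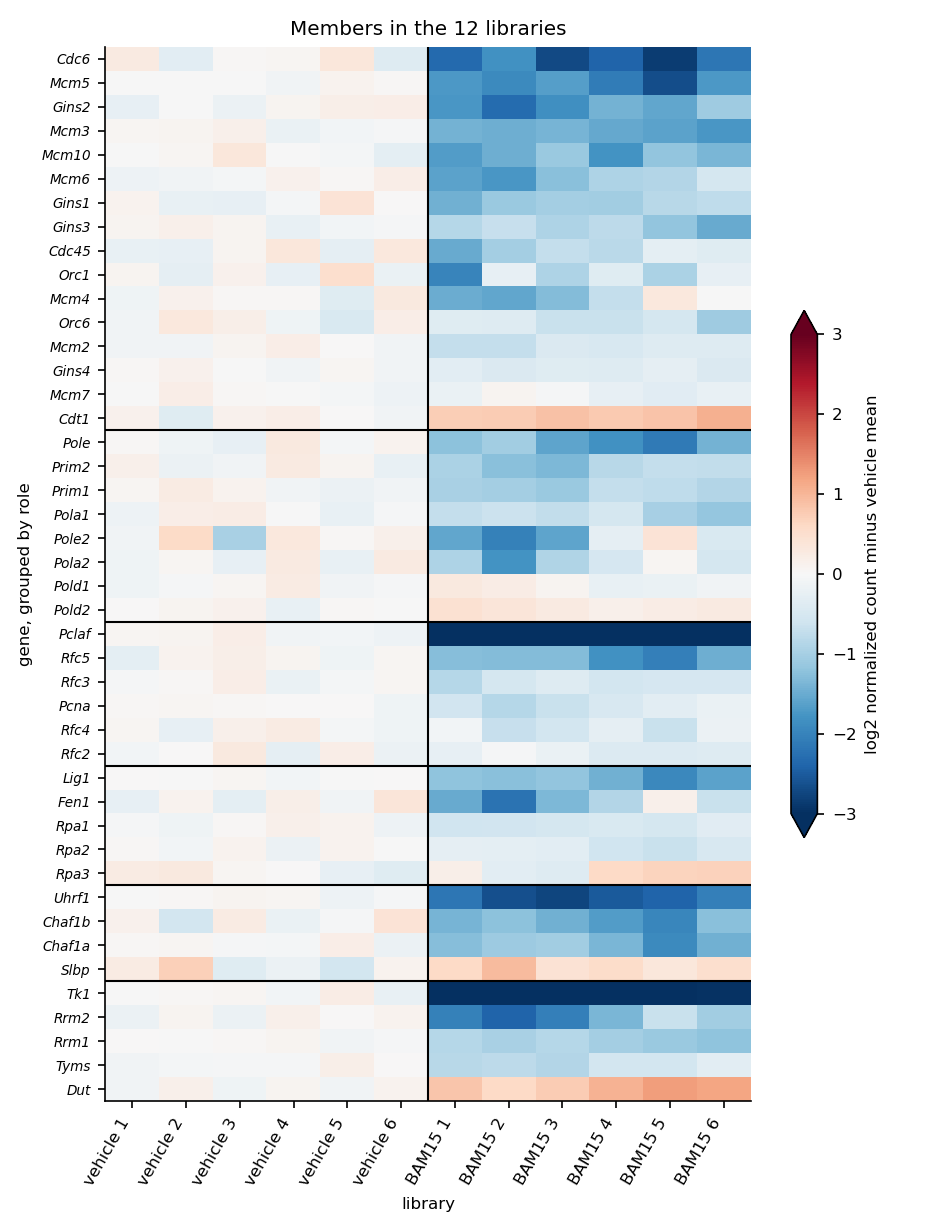
Log2 normalized count of each gene minus its vehicle mean, in 6 vehicle and 6 BAM15 libraries (columns), with genes in rows by role group and black lines between groups. Blue is lower and red higher, and the colour scale ends at −3 and 3, which Pclaf exceeds in all BAM15 libraries and Tk1 in all but library 6. Mcm4, Pole2, Pola2, Fen1 and Rrm2 have their highest BAM15 value in library 5.

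Counts of Mcm4 were 145 to 231 in vehicle libraries, 63.7 to 76.2 in BAM15 libraries 1 to 3, and 113 to 233 in BAM15 libraries 4 to 6. In a model with a mean for each condition and set of numbers, the BAM15 change was −1.45 in numbers 1 to 3 (adjusted p = 9.7e-05) and −0.10 in numbers 4 to 6 (adjusted p = 0.719), and the difference between these changes was 1.35 (SE 0.32, adjusted p = 0.0454). Rrm2 changed by −2.06 and −1.08 (difference 0.97, SE 0.21, adjusted p = 0.0442), so it fell in both sets but less in the second. These were the 2 of 44 genes (4.55%, beside 2.66% of all tested genes) whose change differed between the sets. Neither value is firm: the adjusted p of Mcm4 was above 0.05 without any 1 of the 12 libraries except BAM15 library 4, and that of Rrm2 without any except BAM15 library 4 and vehicle library 3. Without BAM15 library 4, 9 of the 44 genes were called (beside 19.6% of all genes tested), and DESeq2 called 4 (beside 9.75%).

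The 11 genes higher in BAM15 libraries 4 to 6 were Mcm4, Rrm2, Fen1, Pole2, Pola2, Mcm6, Gins2, Rpa3, Pcna, Tyms and Dut. The log2 differences between these BAM15 sets ran from 0.36 for Pcna and for Tyms to 1.70 for Pole2. For Mcm4, Rrm2, Fen1, Pole2, Pola2 and Dut the highest BAM15 library was library 5. Without library 5, Mcm4 (−0.92, adjusted p = 0.00724), Fen1 (−1.26, adjusted p = 0.000171), Pola2 (−0.89, adjusted p = 0.000897) and Pole2 (−1.11, adjusted p = 0.00981) fell at an adjusted p below 0.01. The 6 genes lower in BAM15 libraries 4 to 6 were Lig1, Rfc5, Chaf1a, Rpa2, Pold1 and Rrm1, with differences of −0.21 for Rrm1 to −0.48 for Rfc5. Rpa3 had a value of −0.36 in numbers 1 to 3 (adjusted p = 0.231) and 0.87 in numbers 4 to 6 (adjusted p = 0.0055), and the difference did not pass its test (adjusted p = 0.0567).

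Lower calls past all thresholds numbered 19 of 44 in numbers 1 to 3 alone (beside 4.15% of all genes tested there) and 14 in numbers 4 to 6 alone (beside 3.92%). For the polymerases and primase they were 4 and 1, against 1 in all libraries. In numbers 4 to 6 alone 1 gene passed all thresholds in the higher direction (beside 4.22%), and likewise 1 without BAM15 library 2 (beside 3.76%).

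**Figure D4:**
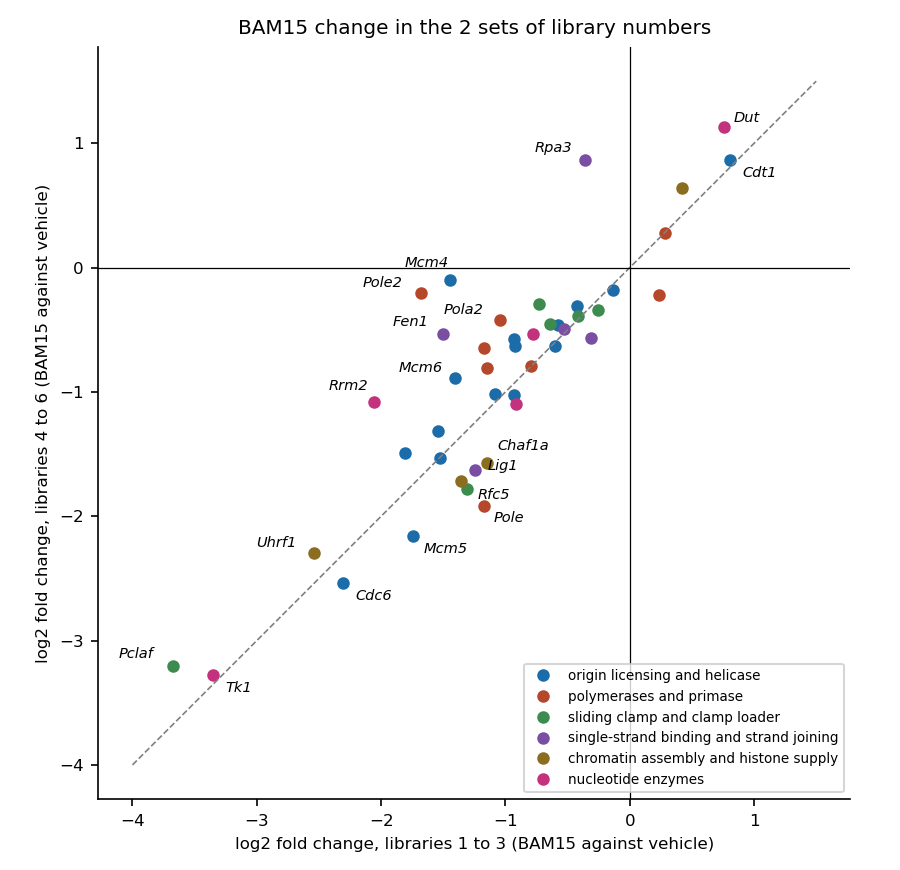
Log2 fold change of each of the 44 genes in libraries 1 to 3 (horizontal axis) against libraries 4 to 6 (vertical axis), coloured by role group, with the dashed line where the values are equal. Tk1 and Uhrf1 lie near the line at strongly negative values, while Mcm4, Pole2, Fen1 and Rrm2 lie above it and Pole below.

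A ratio of a pair of genes within a library depends little on how libraries are scaled. Only the 0.5 added to each normalized count makes it depend on scaling, most at low counts such as those of Orc1. So 10 pairs were made, each a gene against a partner or paralog, with Rrm2 set against both Rrm2b and Rrm1. They were compared in a two-sided exact permutation test over the 12 libraries. The p was adjusted over the 10 pairs. The genes were chosen with earlier results of these data known, and the ratios use the same counts as the tests above. They are not separate evidence of the changes of single genes. The ratio differed for 8 pairs, 7 lower and 1 higher after BAM15, each at an exact permutation p = 0.0021645, the smallest these libraries allow (adjusted p = 0.00271), and in each of the 8 pairs the 6 BAM15 values lay apart from the 6 vehicle values. The log2 ratio of Tk1 to Tk2, the mitochondrial thymidine kinase, went from 2.27 ± 0.29 to −1.74 ± 0.28 (SD, n = 6), a difference of −4.02. That of Rrm2 to Rrm2b, the reductase subunit used outside S phase, went from 1.75 ± 0.20 to −0.59 ± 0.81, a difference of −2.34. Both partners rose, Tk2 by 0.71 and Rrm2b by 0.75 on the log2 scale.

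The log2 ratio of Pclaf to Pcna differed by −2.93, that of Pole to Pole3, a histone-fold subunit of the same polymerase, by −1.48, and that of Chaf1b to Rbbp4, the third subunit of CAF-1, by −1.47. For Orc1 to Orc2 the difference was −1.31 and for Pola1 to Polg, the mitochondrial polymerase, −0.87. Pole3, Rbbp4 and Polg had log2 fold changes of −0.05, −0.02 and 0.07 (adjusted p of 0.56, 0.815 and 0.352), and Orc2 rose by 0.54. Rrm2 against Rrm1 differed by −0.59 (exact permutation p = 0.117, adjusted p = 0.130), with −1.15 in numbers 1 to 3 and −0.02 in numbers 4 to 6. Without BAM15 library 5 that difference was −0.79 (exact permutation, adjusted p = 0.0385). Rfc4 against Rfc1, the large loader subunit, differed by −0.08 (exact permutation p = 0.595), and Rfc1 fell by 0.31.

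**Figure D5:**
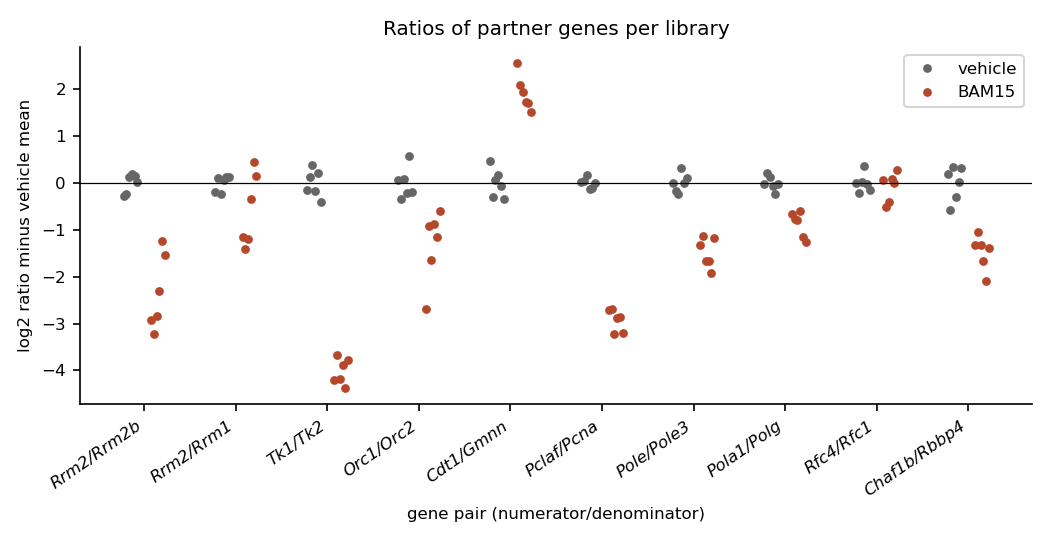
Log2 ratio of 10 gene pairs in each library, minus the vehicle mean of the pair, with vehicle libraries in grey and BAM15 libraries in red. Red points lie apart from grey ones for 8 pairs, lowest for Tk1/Tk2 and above 0 for Cdt1/Gmnn, and overlap for Rrm2/Rrm1 and Rfc4/Rfc1.

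Other genes of replication and nucleotide synthesis, 77 listed by role, moved in both directions. Of these 23 fell (29.9%, beside 20.3% of all tested genes) and 18 rose (23.4%, beside 22.0%). Past all thresholds were 6 that fell (7.79%, beside 3.58%) and 1 that rose (1.30%, beside 3.70%), with a median log2 fold change of −0.05. Among 19 genes of licensing, firing and the fork 10 fell and 5 rose. Clspn, the mediator of the replication checkpoint, fell by 2.44 on the log2 scale (SE 0.16, adjusted p = 6.44e-09), from 206 to 262 counts in vehicle to 25.3 to 62.7 in BAM15 libraries. Among 14 genes of strand maturation and chromatin 6 fell and 1 rose, led by the histone chaperone Asf1b at −1.75 (SE 0.13, adjusted p = 2.97e-08). Of 9 polymerase and loader partners 4 fell.

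Enzymes of nucleotide supply outside the 44 are given by pathway, in small counts that were not compared with each other or with the 22.0% of all tested genes that rose and 20.3% that fell. Of 10 deoxynucleotide enzymes 3 fell and 3 rose. The 3 that rose were Rrm2b, Tk2 and Dctd. Of 17 genes of de novo purine and pyrimidine synthesis, which supply RNA as well as DNA, 6 rose and 11 did not pass. Cad, which catalyses the first steps of pyrimidine synthesis, rose by 1.218 (SE 0.10, adjusted p = 6e-08), from 219 to 321 counts to 529 to 706. Of 8 genes of mitochondrial DNA replication 3 rose, the helicase Twnk by 0.73, Polg2 by 0.74 and Top1mt by 0.50, and 5 did not pass.

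Genes that fell were found with and without a promoter match. Of the 15 with an E2F match 10 fell, 1 rose and 4 did not pass, with a median log2 fold change of −0.97. Of the 22 without a match 15 fell, 2 rose and 5 did not pass, with a median of −0.66. Cdt1 and Pold1 hold a match, while Tk1, Rrm2 and Dut do not. For CCAAT, 19 of 24 genes with a match fell and 1 rose, and 6 of 13 without a match fell and 2 rose. Over all tested genes 20.3% fell and 22.0% rose. No test was made of these counts by promoter match.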

How the data were processed

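RNA of 12 C2C12 myotube libraries was measured by 3′ end sequencing, 6 with BAM15 and 6 with vehicle. The authors deposited whole-number counts per gene, aligned to GRCm38 (mm10), through BlueBee software (the aligner and counter are not given in the sources used here), and a normalized table whose values are a signal, counts divided by DESeq2 (version 1.22.2) size factors by the authors. The deposited normalized signal was used for gene symbols and a check of scaling. The tables also hold 11 columns of other samples, which were not used. Symbols missing for 2293 identifiers were filled for 2260 from the GENCODE annotation of the same build.

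The deposited counts were tested in edgeR 4.0.16 (R 4.3.3) with TMM scaling (factors 0.932 to 1.04), filterByExpr with a minimum of 10 counts, which removed 2383 genes, and a robust quasi-likelihood fit of condition, with adjusted p below 0.01, mean above 50 and more than 2-fold as thresholds. A fit with 4 means (condition by library numbers 1 to 3 or 4 to 6) tested the difference between sets at an adjusted p below 0.05. Ratios of 10 pairs used normalized counts plus 0.5 and a two-sided exact permutation test. Scripts were tested on simulated data. DESeq2 1.42.0, limma 3.58.1, other scalings and filters, and leaving out libraries were tried as alternatives.

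The genes, the lists and the split of library numbers were chosen with earlier results of these data known. In each role group the 2 genes with the largest and the 1 with the smallest absolute fitted change are given in full, with those that depart from their group. Of the other genes, the 3 with the largest change in each direction past all thresholds are named, except 1 that is not reported here, and pair partners. A few more (Dctd, Twnk, Polg2, Top1mt, Orc3, Orc4, Orc5, Pax7, Myf5, Fn1, Col1a1, Dcn) were named after their values were seen. Promoters were matched by symbol to RefSeq (GRCm38.p6), and protein sequences were not used here. The labels do not say that libraries came from separate cultures, so p-values measure the spread between these libraries, which may be technical. No pair of libraries within a condition agreed within counting noise (chi-square per gene 4.98 to 84.7).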

Additional observations from a re-analysis of the deposited data

Results flagged for a closer look

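Values that stood apart within their condition were found for 3 of the 88 sets of 6 libraries tested (44 genes in 2 conditions), by Dixon's test at the 95% level. Chance alone flags about 1 in 20 such sets, or 4.4 of 88. Pcna had 494 normalized counts in vehicle library 6, and the other vehicle libraries had 546 to 562. Slbp had 76.7 in BAM15 library 2, and the other BAM15 libraries had 49.8 to 59.2. Tyms had 288 in vehicle library 5, and the other vehicle libraries had 237 to 256. The flags fell on 3 different libraries.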

How the results depend on the processing

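Of the 44 genes, 29 kept their direction and their side of an adjusted p of 0.01 under every alternative run (up to 24 per gene, from other tools, scalings, filters and thresholds to single libraries left out), and 28 of the 33 genes called were among them. The count that fell past all thresholds (14) was 13 to 16 when single libraries were left out, and the count that fell at an adjusted p below 0.01 (30) was 29 to 34. A limit of 2 on the log2 scale, another reading of the methods' wording, left 3 of the 44 genes and 1 of the other replication genes past all thresholds. The count of genes whose change differed between the sets of library numbers (2) was 4 with DESeq2, 7 with scaling by library size only, and 0 to 9 with 1 library left out. Rrm2 against Rrm1 differed by −0.79 to −0.42 with 1 library left out and passed the test (adjusted p = 0.0385) only without BAM15 library 5.

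Pold1 changed sign, to −0.23 in numbers 4 to 6, −0.0484 with library size only and −0.00167 with upper-quartile scaling, and ran from −0.0407 to 0.0705 with 1 library left out. Rpa3 was −0.37 in numbers 1 to 3. The log2 ratio of Rfc4 to Rfc1 was 0.0570 in numbers 4 to 6 and −0.15 to 0.0046 with 1 library left out. Neither Pold1 nor this ratio passed its test under any of these settings (the ratio was not tested within a set of numbers), Rpa3 was 0.86 in numbers 4 to 6 alone (adjusted p = 0.0148), and the cause was not tested. Scaling moved the median of all genes from 0.02 to −0.04 and that of the 44 from −0.77 to −0.83. Library numbers did not pair the conditions: same-numbered libraries had correlations of −0.08 to 0.31, above 0.1 for 4 of 6. BAM15 libraries 1 to 3 were each most like vehicle library 3 and BAM15 libraries 4 to 6 each most like vehicle library 6. With the number as a replicate block, 15 genes fell past all thresholds, 30 fell and 4 rose at an adjusted p below 0.01, Slbp (0.55, adjusted p = 0.0088) being the added one, and 6 of the other replication genes fell past all thresholds. The block gave the 8 pairs an exact permutation adjusted p of 0.039 each. The largest SE was that of Pole2 (0.37), and reads amplified without molecular tags are not independent molecules, so counting error is a lower limit.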

Other observations

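Histone genes of the clusters, whose mRNAs need Slbp and mostly carry no poly(A) tail, were looked at after the values of Slbp had been seen. Of 39 listed genes 16 were tested, 5 rose and 5 fell at an adjusted p below 0.01 (edgeR, where 22.0% of all tested genes rose and 20.3% fell), and the median log2 fold change was 0.08. Hist1h1c, a linker histone gene, rose by 1.96 (adjusted p = 7.74e-13), from 2924 ± 110 to 11389 ± 804 normalized counts (SD, n = 6). Hist1h1b, another linker histone gene, fell by 2.72 (adjusted p = 1.54e-06), from 82.6 ± 33.6 to 12.3 ± 4.31. Hist2h4 rose by 2.65, from 12.6 ± 2.44 to 79.6 ± 27.0, and Hist2h3c2 fell by 1.02, from 222 ± 26.9 to 109 ± 18.6. Core histone genes have near-identical copies, so the assignment of their reads is uncertain, and a library primed on poly(A) holds only the tailed part of these mRNAs.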
